A study of Caenorhabditis elegans with 24 samples.

Results

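The metallothionein genes mtl-1 and mtl-2, the cadmium-responsive cdr genes and the numr genes of Caenorhabditis elegans were followed across 4 successive generations of hypoxia exposure. The members were the rows of the count table whose gene identifiers carry the names mtl-1, mtl-2, cdr-1 to cdr-7 and numr-1 in the Ensembl annotation of WBcel235. Of these 10 names, 9 matched, and they gave 10 rows of the 46926 genes counted, because the annotation gives the name numr-1 to a pair of genes. RefSeq names that pair numr-1 and numr-2, and they are called so here. The name cdr-5 belongs to no row. hrg-2, which older literature called cdr-5, was outside the rule and was described beside the members because it lies inside their cluster.

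The set had been chosen from the hypoxia effects themselves, on the impression that metal-response genes were higher in exposures 1 to 3 and not in exposure 4. The hypoxia and normoxia levels of the members, and any calls of that difference, are therefore given as a description and not as a test. As a description, cdr-2 had that pattern and the set as a whole did not: mtl-1, mtl-2 and cdr-4 were also higher in the hypoxia libraries of exposure 4.

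Wild-type (WT) worms were kept at 0.1% oxygen for 16 hours from the L4 larval stage (hypoxia) or in ordinary air for the same time (normoxia), and the treatment was repeated in their descendants, so that each generation gave 1 hypoxia and 1 normoxia group. The 8 groups had 3 libraries each, made from poly(A) RNA of frozen pellets of whole worms, so each library pools many animals and every tissue. The study calls the libraries of a group biological replicates without saying how they were grown apart, and p-values measure the spread between them. Each generation was also its own culture and collection, and generation and batch cannot be told apart.

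Total counts ran between 26862487 and 46228496 per library. The share of counts on 22 ribosomal RNA genes was between 0.43% and 17.4%, highest in replicate 1 of the hypoxia group of exposure 4. None of the defining markers of the tissues examined was at 0 in any group. Adult-stage markers (3 vitellogenin genes and col-19) summed to between 16453 and 42160 CPM (counts scaled to the library's effective total) in the hypoxia libraries and to between 36970 and 78887 CPM in the normoxia libraries, in worms labelled L4. Within each exposure, every hypoxia library lay below every normoxia library. The same held for the sum of 3 L4 molt markers (mlt-10, noah-1 and nas-37), at 30.7 to 225 CPM in hypoxia and 175 to 319 CPM in normoxia. By gene, 1 of these 3 was called higher and 2 lower in hypoxia of exposure 2. The part of either list in the results was not tested. In pools of whole worms, fewer cells of a type and less RNA per cell cannot be told apart.

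Metallothioneins are very small, cysteine-rich proteins that bind zinc, copper and cadmium. In C. elegans both genes are induced by cadmium in intestinal cells, and mtl-1 is also active without metal in a few cells of the pharynx. The CDR proteins are a family related to glutathione S-transferases: cdr-1 encodes a lysosomal membrane protein of the intestine that is induced by cadmium, and cdr-4 responds to several metals. The numr genes encode nuclear proteins that are induced by metals. The intestinal GATA factor ELT-2 and the zinc-activated nuclear receptor HIZR-1 act on several of these promoters.

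All members except the numr genes lie on chromosome V. mtl-1 (WBGene00003473) spans 6691371 to 6691863 and mtl-2 (WBGene00003474) spans 14018270 to 14018673, both on the minus strand and each with 2 exons. cdr-1 (WBGene00000412) lies apart from its family at 15921309 to 15922820, on the plus strand. cdr-4, hrg-2, cdr-7, cdr-6, cdr-2 and cdr-3 follow one another in that order on the minus strand between 12407366 and 12417377, separated by gaps of 789, 365, 373, 954 and 648 bp with no other protein-coding gene between them. numr-1 (WBGene00017270) and numr-2 (WBGene00017267) lie on chromosome III at 7362619 to 7363464 and 7364385 to 7365230, 846 bp each, 920 bp apart and on opposite strands. Reads of near-identical copies may have been divided between the numr rows by the alignment, so their separate values are uncertain. No member overlaps another annotated gene.

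Per kilobase of exon, the metallothioneins and cdr-4 were the most abundant members in hypoxia. In the hypoxia libraries of exposure 2, the group means were 180 CPM per kb for mtl-1, 169 for mtl-2, 94.7 for cdr-4, 93.0 for cdr-2 and 41.1 for cdr-6. The other members had group means of at most 4.43 CPM per kb there. In the normoxia libraries of the same generation, mtl-1 stood at 162 CPM per kb and cdr-4 at 6.29.

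**Figure D1:**
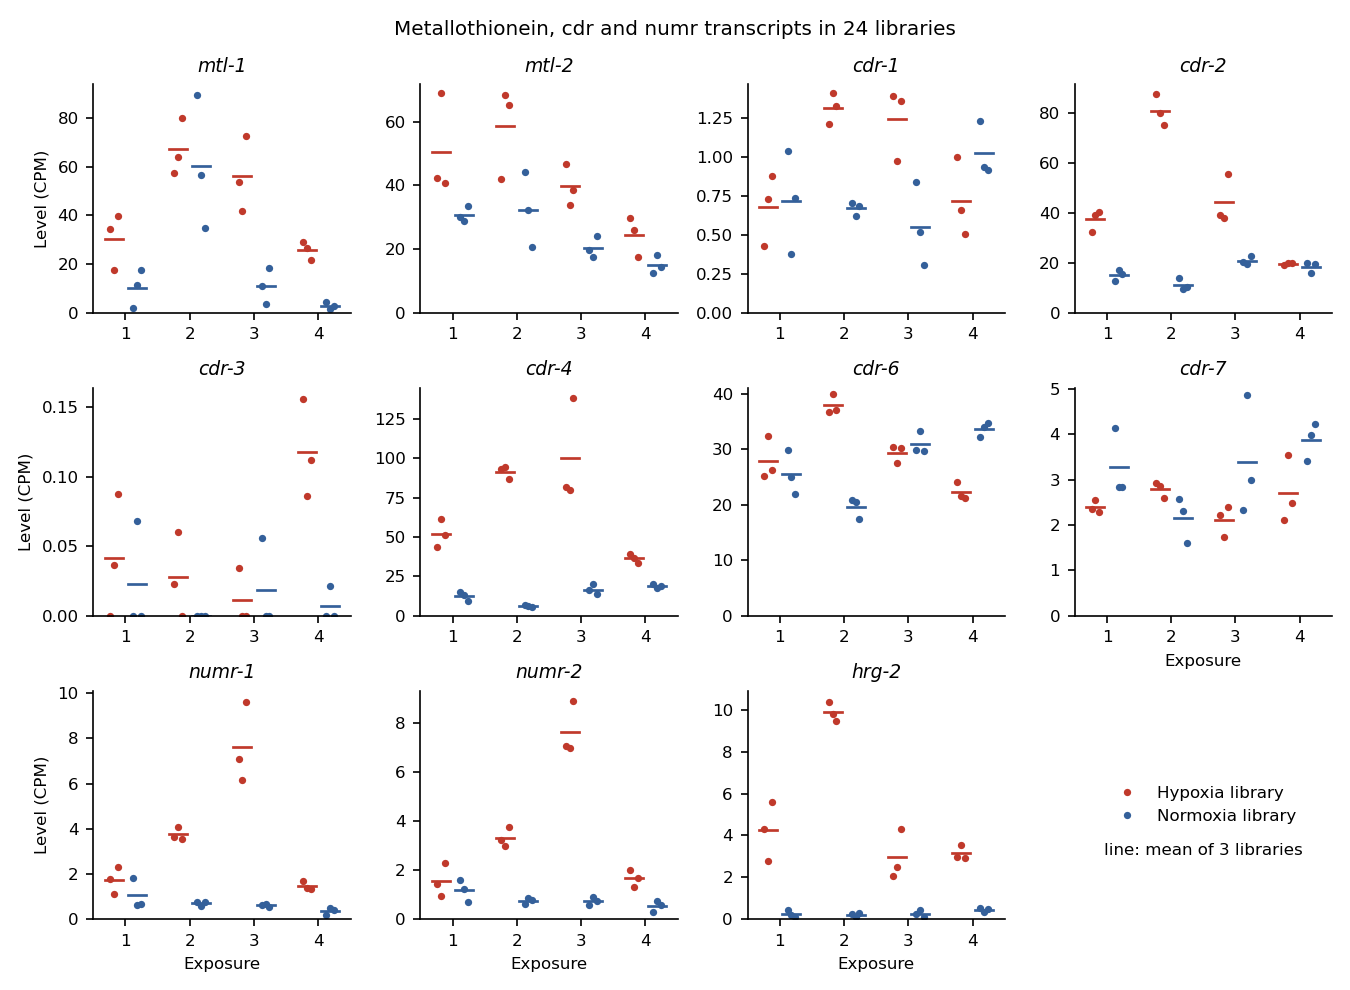
Level of each member and of hrg-2 in CPM (vertical axis, linear from 0) in the 3 hypoxia and 3 normoxia libraries of each exposure (horizontal axis), with lines at the group means. cdr-4 and hrg-2 were separated between hypoxia and normoxia in every exposure, while the mtl-1 libraries overlapped in exposures 1 and 2 and those of cdr-2 in exposure 4.

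mtl-1 did not have the same difference between hypoxia and normoxia in each exposure. In exposure 1 it had 34.3, 17.4 and 39.8 CPM in the hypoxia libraries and 2.02, 11.2 and 17.7 CPM in the normoxia libraries. In exposure 2 it had 57.5, 63.9 and 80.2 CPM in hypoxia, against 89.5, 56.6 and 34.7 CPM in normoxia. The libraries overlapped in both of these exposures, and in the second one the highest value of all 24 libraries came from a normoxia library.

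In exposure 3, mtl-1 had 53.9, 41.7 and 72.6 CPM in the hypoxia libraries and 11, 3.73 and 18.5 CPM in the normoxia libraries. In exposure 4 it had 29.1, 26.8 and 21.8 CPM in hypoxia and 4.51, 1.36 and 2.79 CPM in normoxia. Every hypoxia library lay above every normoxia library in these exposures. The log2 fold changes of hypoxia over normoxia were 1.56 (SE 0.70), 0.17 (SE 0.27), 2.35 (SE 0.48) and 3.19 (SE 0.35) in exposures 1 to 4. The hypoxia level itself was lowest in exposure 4, with a mean of 25.9 ± 3.72 CPM (SD, n = 3), and the normoxia level there was lower still, at 2.89 ± 1.58 CPM (SD, n = 3).

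mtl-1 also varied more between replicates than nearly all other genes. Its standard deviation within groups was 0.86 on the log2 CPM scale, against a median of 0.19 over 13423 genes, which placed it at percentile 99.1. mtl-2 stood at 0.35, cdr-4 at 0.25, cdr-2 at 0.20 and cdr-6 at 0.13. The SE of its fold change reached 0.70, in exposure 1.

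mtl-2, the second metallothionein, had 42.3, 68.9 and 40.7 CPM in the hypoxia libraries of exposure 1, against 30.2, 28.7 and 33.4 CPM in normoxia, and 42.0, 68.5 and 65.3 CPM in hypoxia of exposure 2, against 44.1, 32.4 and 20.6 CPM in normoxia. In exposure 3 the values were 46.8, 33.7 and 38.5 CPM in hypoxia and 19.7, 17.4 and 24.2 CPM in normoxia. In exposure 4 they were 29.8, 26.0 and 17.5 CPM in hypoxia and 12.5, 18.1 and 14.4 CPM in normoxia. The libraries were separated in exposures 1 and 3, and in exposures 2 and 4 a single hypoxia library fell below the highest normoxia library. Its log2 fold changes stayed between 0.70 (SE 0.21) in exposure 4 and 0.97 (SE 0.16) in exposure 3, with 0.71 (SE 0.21) in exposure 1 and 0.87 (SE 0.25) in exposure 2.

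cdr-4 was higher in hypoxia in every exposure and separated without overlap each time. The hypoxia libraries had 43.5, 61.3 and 51.4 CPM in exposure 1, against 15.2, 13 and 9.28 CPM in normoxia. In exposure 2 they had 92.8, 94.1 and 87.0 CPM, against 6.72, 5.97 and 5.50 CPM in normoxia. In exposure 3 they had 81.8, 79.9 and 138 CPM, against 16, 20.1 and 13.6 CPM in normoxia, and replicate 3 stood above the other two.

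In exposure 4, cdr-4 fell short of all earlier hypoxia levels, with 39.2, 36.7 and 33.6 CPM in the hypoxia libraries against 20.0, 17.6 and 18.9 CPM in normoxia. Its log2 fold changes were 2.05 (SE 0.22), 3.93 (SE 0.09), 2.60 (SE 0.23) and 0.96 (SE 0.09) in exposures 1 to 4. Ordered by hypoxia level, exposures 3 and 2 overlapped at the top, and exposures 1 and 4 followed without overlap.

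Among the members tested in every exposure, only cdr-2 had all hypoxia libraries above normoxia in exposures 1 to 3 and overlap in 4. This is the pattern that chose the set, so it is a description and no evidence for the pattern. It had 32.5, 39.1 and 40.5 CPM in hypoxia and 12.7, 17.1 and 15.6 CPM in normoxia of exposure 1. It had 87.5, 80.1 and 75.3 CPM in hypoxia of exposure 2, against 13.9, 9.35 and 10.4 CPM in normoxia, and 39.3, 37.9 and 55.6 CPM in hypoxia of exposure 3, against 20.2, 19.6 and 22.5 CPM in normoxia. In exposure 4 the hypoxia libraries had 19.1, 19.8 and 19.7 CPM and the normoxia libraries 19.7, 16.0 and 19.5 CPM, which overlapped. The log2 fold changes were 1.29 (SE 0.15), 2.87 (SE 0.13), 1.11 (SE 0.15) and 0.09 (SE 0.10).

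hrg-2, a heme-responsive gene of the same cluster that acts in the hypodermis, had the largest ratios of hypoxia to normoxia among these genes in exposures 1 and 2, cdr-3 left aside for its few counts. It had 4.31, 2.80 and 5.61 CPM in hypoxia of exposure 1, against 0.429, 0.205 and 0.118 CPM in normoxia, and 10.4, 9.80 and 9.46 CPM in hypoxia of exposure 2, against 0.225, 0.0984 and 0.301 CPM in normoxia. In exposure 3 the hypoxia libraries had 2.04, 2.51 and 4.29 CPM and the normoxia libraries 0.223, 0.425 and 0.122 CPM. In exposure 4 they had 2.96, 3.54 and 2.93 CPM in hypoxia and 0.526, 0.318 and 0.502 CPM in normoxia. The groups never overlapped, and the mean CPM in hypoxia was 16.9, 47.5, 11.5 and 7 times that in normoxia in exposures 1 to 4, from as few as 3 counts in a normoxia library.

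cdr-6 and cdr-7 lie between hrg-2 and cdr-2. The fold changes of cdr-6 were smaller than those of cdr-2 in each exposure and had the same order over the exposures. It had 36.8, 40.0 and 37.1 CPM in hypoxia of exposure 2, above the 20.8, 20.6 and 17.5 CPM of normoxia, and 24.1, 21.6 and 21.3 CPM in hypoxia of exposure 4, below the 32.2, 34.0 and 34.8 CPM of normoxia. Its libraries overlapped in exposures 1 and 3. The log2 fold changes of cdr-6 were 0.12 (SE 0.16), 0.97 (SE 0.09), -0.05 (SE 0.09) and -0.59 (SE 0.08) in exposures 1 to 4.

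cdr-7 stayed between 1.74 and 3.54 CPM in the hypoxia libraries and between 1.61 and 4.86 CPM in the normoxia libraries. Its log2 fold changes were -0.46 (SE 0.23), 0.39 (SE 0.21), -0.65 (SE 0.30) and -0.51 (SE 0.21), and it was called in no exposure. cdr-3, at the far end of the cluster, had 0 to 5 counts per library and 0 counts in 13 of 24 libraries. A count of 0 allowed up to 0.0636 to 0.122 CPM, depending on the library (3 counts, counting error only). In exposure 4, cdr-3 summed to 12 counts in hypoxia and 1 count in normoxia, a ratio of 15.5 with a 95% exact binomial interval of 2.29 to 662 that covers counting error only.

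**Figure D2:**
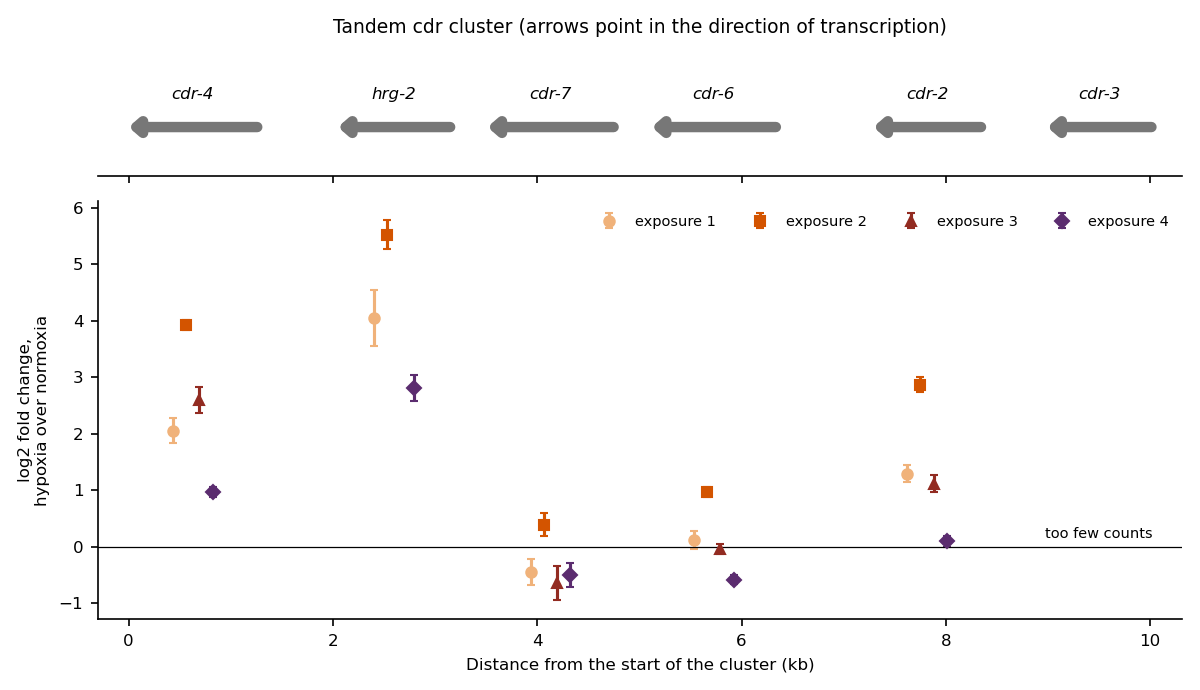
Order of cdr-4, hrg-2, cdr-7, cdr-6, cdr-2 and cdr-3 in their tandem cluster (top; distance in kb from the cluster's start) and the log2 fold change of hypoxia over normoxia of each gene in exposures 1 to 4 (bottom; bars are ± SE; cdr-3 and hrg-2 in exposure 3 had too few counts to be tested). Where tested, cdr-4, hrg-2, cdr-6 and cdr-2 were highest in exposure 2 and lowest in exposure 4, with cdr-6 between 0.97 and -0.59, while cdr-7 stayed between -0.65 and 0.39.

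cdr-1, the founding cadmium-inducible member on the distal part of the chromosome, was near the bottom of the count range. It had 10 to 54 counts per library and was not tested at the filter used. Its hypoxia libraries lay above the normoxia libraries in exposure 2, with 1.21, 1.41 and 1.33 CPM against 0.707, 0.623 and 0.684 CPM, and in exposure 3, with 1.39, 0.973 and 1.36 CPM against 0.837, 0.516 and 0.305 CPM. In exposure 1 the libraries overlapped, with means of 0.678 CPM in hypoxia and 0.718 CPM in normoxia, and in exposure 4 with means of 0.719 CPM in hypoxia and 1.03 CPM in normoxia.

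The numr genes were highest in the hypoxia libraries of exposure 3. numr-1 had 7.07, 6.16 and 9.63 CPM there, against 0.642, 0.668 and 0.550 CPM in normoxia, and 3.62, 4.08 and 3.55 CPM in hypoxia of exposure 2, against 0.772, 0.590 and 0.738 CPM in normoxia. In exposure 4 it had 1.68, 1.37 and 1.34 CPM in hypoxia and 0.175, 0.509 and 0.415 CPM in normoxia, again without overlap. In exposure 1, with 1.79, 1.09 and 2.31 CPM in hypoxia and 1.84, 0.616 and 0.678 CPM in normoxia, the libraries overlapped. Its log2 fold changes were 2.42 (SE 0.21) in exposure 2 and 3.63 (SE 0.24) in exposure 3, and those of numr-2 were 2.16 (SE 0.22) and 3.4 (SE 0.24). Both rows had too few counts to be tested in exposures 1 and 4.

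Across the 24 libraries the numr rows correlated with Pearson r = 0.97 on the log2 CPM scale, which is a description, since the rows share libraries and may share reads. cdr-2 and cdr-4 had r = 0.91, cdr-4 and hrg-2 had r = 0.90, and mtl-1 and mtl-2 had r = 0.68. cdr-6 had r = 0.66 with cdr-2 and 0.57 with cdr-4. Over deviations from the group means, r was 0.74 for the numr rows, 0.71 for cdr-4 and cdr-6, 0.60 for cdr-4 and hrg-2, 0.38 for cdr-2 and cdr-4, 0.17 for mtl-1 and mtl-2 and -0.04 for cdr-2 and cdr-6. mtl-1 and cdr-7 had r = -0.72 over the same libraries.

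**Figure D3:**
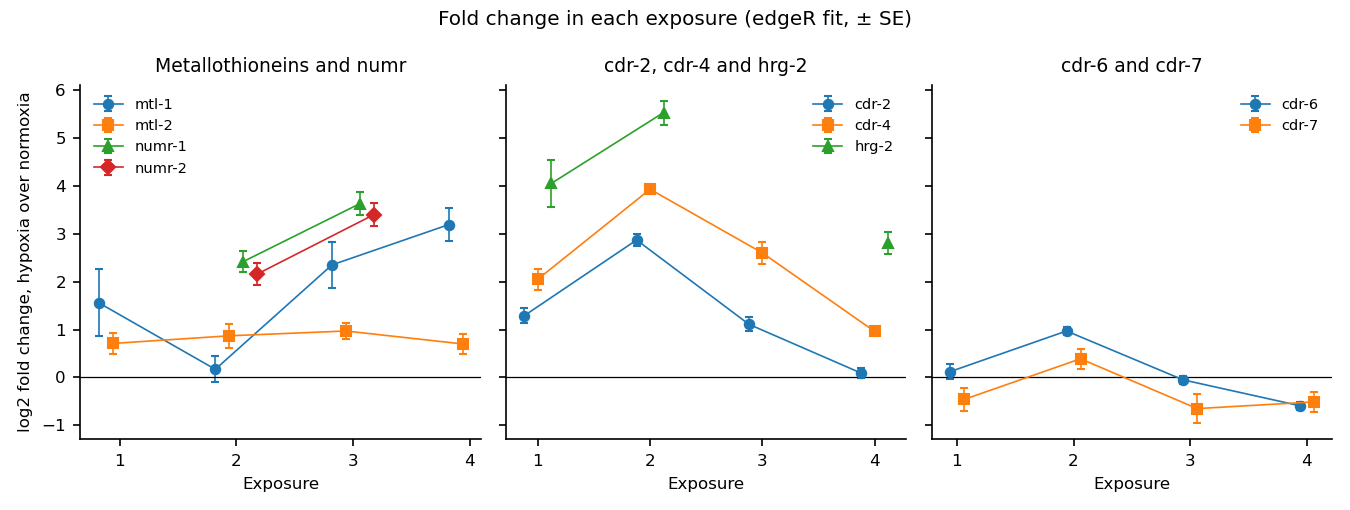
Log2 fold change of hypoxia over normoxia (vertical axis; points are estimates of the edgeR fit, bars are ± SE) in exposures 1 to 4 (horizontal axis) for the members with enough counts and hrg-2. mtl-1 was lowest in exposure 2 (0.17) and highest in exposure 4 (3.19), while cdr-2 and cdr-4 were highest in exposure 2 (2.87 and 3.93) and lowest in exposure 4.

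At the call threshold (edgeR, Benjamini-Hochberg adjusted p under 0.05 over all genes tested), 2 of 6 tested members were called higher in hypoxia in exposure 1, against 13.3% of all genes tested. In exposure 2 they were 6 of 8, against 37.2%, in exposure 3 they were 6 of 8, against 12.4%, and in exposure 4 they were 3 of 6, against 27.1%. One member, cdr-6, was called lower, in exposure 4, where 23.0% of all genes were. The members had been chosen by these contrasts and nothing is read from the counts. The median log2 fold change over the tested members was 1.00, 1.56, 1.73 and 0.40 in exposures 1 to 4, and that over all genes tested lay between -0.02 and 0.03. The numr rows were tested only in exposures 2 and 3, mostly through their hypoxia counts. For numr-1 these were 410 and 737 counts, against 69 and 63 in normoxia. The members tested thus differed between exposures, and their medians and counts of calls are not comparable across exposures. In exposure 4 the call of mtl-2 was lost without hypoxia replicate 1 or 2 or normoxia replicate 3.

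The difference between the mean effect of exposures 1 to 3 and the effect of exposure 4, also part of the choice, was 1.90 (SE 0.23) for cdr-4, 1.67 (SE 0.18) for cdr-2 and 0.93 (SE 0.13) for cdr-6 on the log2 scale. It was 0.14 (SE 0.31) for mtl-2, 0.29 (SE 0.45) for numr-1, 0.39 (SE 0.39) for numr-2 and 0.26 (SE 0.28) for cdr-7. For mtl-1 it was -1.82 (SE 0.68), on the side opposite to the impression that chose the set.

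The normoxia libraries of the 4 generations were also set against one another. Their levels are the denominators of the contrasts that chose the members, so these values and the calls of members are given as a description. Each generation was compared with the mean of the other 3, and the comparisons of generations 2 and 4 therefore contain each other's libraries. Those of generations 1, 2 and 3 were added after the values had been seen. 6 members had enough counts, namely mtl-1, mtl-2, cdr-2, cdr-4, cdr-6 and cdr-7. Over all 4 groups, 5 of the 6 were called as different (all but cdr-7), where 57.9% of all genes were (edgeR quasi-likelihood F test), and nothing is read from this or from the counts of calls that follow. cdr-7 was called with no count filter and without normoxia replicate 2 of generation 3.

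mtl-1 averaged 60.3 ± 27.6 CPM in normoxia of generation 2 (SD, n = 3), against 10.3, 11.1 and 2.89 CPM in generations 1, 3 and 4. Each of its generation 2 libraries lay above every other normoxia library, and the log2 difference was 3.13 (SE 0.52). mtl-2 had a log2 difference of 0.61 (SE 0.19) there, with a mean of 32.4 ± 11.8 CPM in generation 2 and 30.8 ± 2.43 CPM in generation 1 (SD, n = 3 each), and its libraries overlapped. Without normoxia replicate 1 of generation 2 that difference was 0.32.

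The cdr genes stood at the low end in normoxia of generation 2. cdr-4 averaged 6.06 ± 0.617 CPM there (SD, n = 3), against 12.5, 16.6 and 18.9 CPM in generations 1, 3 and 4, a log2 difference of -1.38 (SE 0.17). cdr-6 averaged 19.6 ± 1.85 CPM (SD, n = 3), against 25.6, 30.9 and 33.6 CPM, a log2 difference of -0.61 (SE 0.10). For both genes every library of generation 2 lay below every other normoxia library. The log2 differences of cdr-2 and cdr-7 were -0.68 (SE 0.13) and -0.71 (SE 0.24), with overlap. In generation 2, 2 members were called higher and 4 lower (edgeR), where 24.2% and 24.1% of all genes were. The call of mtl-2 was lost without normoxia replicate 1 or 2 of generation 2, and that of cdr-7 without replicate 2 or 3 of that group or replicate 3 of generation 4.

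In normoxia of generation 4, mtl-1 and mtl-2 had their lowest means, with log2 differences of -2.72 (SE 0.70) and -0.85 (SE 0.20) from generations 1 to 3. The log2 differences were 0.81 (SE 0.14) for cdr-4, 0.44 (SE 0.09) for cdr-6, 0.29 (SE 0.13) for cdr-2 and 0.44 (SE 0.22) for cdr-7. In each of these 6 genes the libraries of generation 4 overlapped those of another generation. cdr-4 and cdr-6 were called higher and both metallothioneins lower, where 20.5% of all genes were called higher and 23.3% lower. The call of mtl-1 was lost without normoxia replicate 2 of generation 4, the lowest library at 1.36 CPM. cdr-2 was called without normoxia replicate 1 of generation 2, and cdr-7 without replicate 2 of generation 3.

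In generation 1, 0 of the 6 members were called by edgeR and 0 by DESeq2, with 1 (mtl-2) at an unadjusted p under 0.05 in edgeR, where 5.16% of all genes were called higher and 3.25% lower. mtl-2 was called there with no count filter and without normoxia replicate 1 of generation 2. In generation 3 the log2 differences were 0.50 (SE 0.12) for cdr-2 and 0.56 (SE 0.15) for cdr-4. These 2 were called higher. None was called lower, with 0 also by DESeq2 and at an unadjusted p under 0.05, where 11.3% of all genes were called higher and 7.58% lower. Both calls were lost without normoxia replicate 1 of generation 3, that of cdr-2 also without replicate 3 and that of cdr-4 without replicate 2. cdr-6, at 0.26 (SE 0.09), was called by DESeq2 and without normoxia replicate 1 of generation 1.

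**Figure D4:**
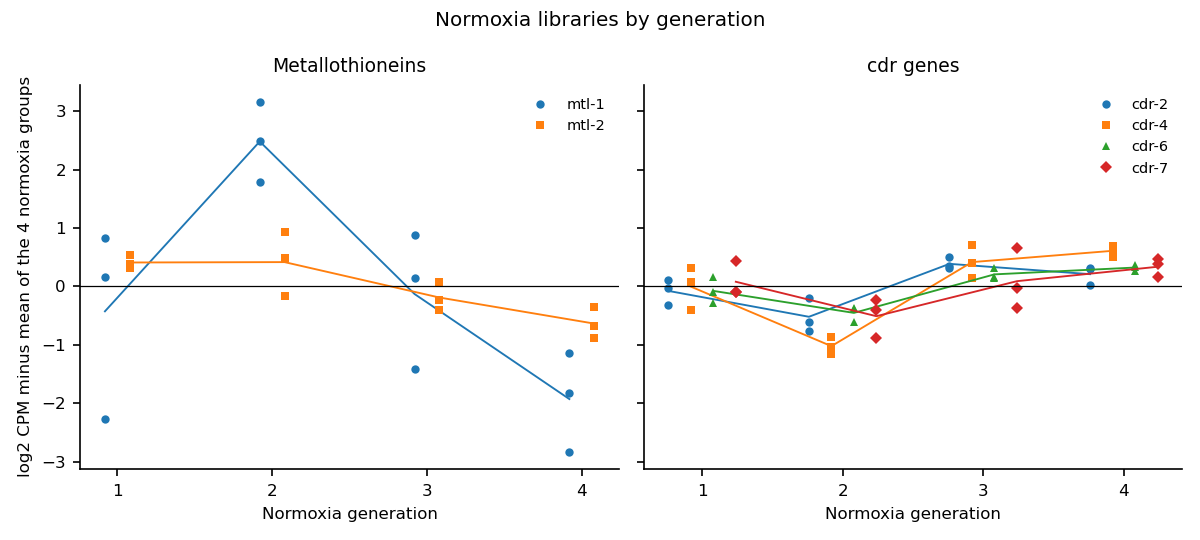
Log2 CPM of the 2 metallothioneins and 4 cdr genes in the 12 normoxia libraries, relative to the mean of the 4 normoxia groups (vertical axis), by generation (horizontal axis). Points are libraries and lines join group means. mtl-1 stood highest in generation 2 and lowest in generation 4, and cdr-4 was lowest in generation 2.

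Summed marker levels of several tissues also differed between these groups. The hypodermis list (dpy-7, rol-6, dpy-13 and col-10) summed to 166 to 225 CPM in normoxia of generation 2 and to 733 to 999 CPM in normoxia of generation 4. In the comparison of generation 4 with the others, 4 of the 4 were called higher, and in that of generation 2 with the others 3 were called lower and 1 higher. In exposure 2 the same list summed to 2057 to 2096 CPM in the hypoxia libraries, where cdr-2, cdr-4, cdr-6 and hrg-2 were also highest or near their highest. By gene, 3 of the 4 were called higher and 1 lower in hypoxia of exposure 2. In exposure 3 the hypodermis list summed to 144 to 369 CPM in hypoxia and 600 to 812 CPM in normoxia. There cdr-4 had its highest hypoxia mean, at 99.8 CPM against 91.3 CPM in exposure 2. The hypoxia means of the other genes fell from exposure 2 to exposure 3. They went from 80.9 to 44.3 CPM for cdr-2, 38 to 29.5 CPM for cdr-6 and 9.89 to 2.95 CPM for hrg-2. The sperm list of 7 genes was called higher in hypoxia for 6 of 6 genes tested in exposure 1, 7 of 7 in exposure 2, 1 of 6 in exposure 3 and 6 of 6 in exposure 4. In normoxia of generation 4, 6 of 6 were called lower. Its sum was 118 to 129 CPM in the hypoxia libraries of exposure 4 and 52.4 to 55.4 CPM in the normoxia libraries. The 8 oocyte and eggshell genes were all called lower in hypoxia of exposure 2, and 6 of them were called higher in normoxia of generation 4 and 6 lower in normoxia of generation 2. The 3 body wall muscle genes were called higher in hypoxia of exposure 2, where they summed to 5422 to 5528 CPM, against 2163 to 2538 CPM in normoxia. Of all genes tested, 13.3%, 37.2%, 12.4% and 27.1% were called higher in hypoxia of exposures 1 to 4, and 36.3% lower in exposure 2. In normoxia, 24.2% were called higher and 24.1% lower in generation 2, and 20.5% and 23.3% in generation 4. The part of these cells in the results was not tested.

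The intestine list of 9 genes summed to 4686 to 6084 CPM in normoxia of generation 2 and to 3251 to 3918 CPM in normoxia of generation 4. Most of this sum is asp-1, with a median of 4075 CPM over the libraries. In generation 2, 4 of the 9 were called higher and 3 lower, where 24.2% and 24.1% of all genes were. In generation 4, 0 were called higher and 6 lower, where 20.5% and 23.3% of all genes were. Over the hypoxia libraries the sum was 5060 to 5695, 7766 to 7876, 5188 to 6948 and 4189 to 4491 CPM in exposures 1 to 4. By gene, 0 of the 9 were called higher in hypoxia and 1 lower in exposure 1, against 13.3% and 7.40% of all genes. There were 6 higher and 2 lower in exposure 2 (37.2% and 36.3% of all genes) and 0 higher and 5 lower in exposure 3 (12.4% and 17.7%). Exposure 4 had 3 higher and 2 lower (27.1% and 23.0%). The part of this list in the metallothionein levels was not tested.

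elt-2, which encodes the intestinal GATA factor and belongs to that list, had means of 12.6, 14.4, 9.92 and 6.36 CPM in normoxia of generations 1 to 4. It was higher in normoxia of generation 2 by 0.63 (SE 0.12, edgeR adjusted p = 0.00191) and lower in normoxia of generation 4 by a log2 difference of -0.93 (SE 0.13, adjusted p = 0.00065). Among the 12 regulators that include elt-2, 9 were called higher and 2 lower in generation 2, where 24.2% and 24.1% of all genes were, and 2 higher and 8 lower in generation 4, where 20.5% and 23.3% were. hizr-1 differed by 0.47 (SE 0.13, adjusted p = 0.014) in generation 2 and by -0.61 (SE 0.14, adjusted p = 0.00673) in generation 4. In hypoxia elt-2 averaged 15.2 ± 2.96 CPM in exposure 4, against 6.36 ± 0.773 CPM in normoxia (SD, n = 3 each), a log2 fold change of 1.27 (SE 0.16, edgeR adjusted p = 0.000415). In exposure 3 it fell by 0.98 (SE 0.19, adjusted p = 0.00641) and in exposure 2 by 0.63 (SE 0.11, adjusted p = 0.000312). elt-2 and hizr-1 were named outside the rule for naming genes, and elt-2 after its values were seen. The comparison of generation 2 was itself added after values had been seen. Nothing is read from these p-values.

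Other metal-handling genes were taken from 5 lists of 52 genes in all, drawn up with earlier results of these data known. Nothing is read from the counts of their calls. In exposure 1, 13 of the 51 tested rose in hypoxia and 1 fell, against 13.3% and 7.40% of all genes. In exposure 2, 30 rose and 10 fell of 51, against 37.2% and 36.3%. In exposure 3, 19 rose and 4 fell of 50, against 12.4% and 17.7%, and in exposure 4, 20 rose and 9 fell of 52, against 27.1% and 23.0%. With 1 library of exposure 4 left out, 16 to 24 rose and 6 to 7 fell there. The count of 13 was 7 without hypoxia replicate 3 of exposure 1 or normoxia replicate 2, and 8 without normoxia replicate 3. The 1 that fell was pgp-5, and that count was 6 without hypoxia replicate 2 and 0 without hypoxia replicate 1 or 3 or normoxia replicate 2 or 3. The median log2 fold changes over these genes were 0.16, 0.42, 0.27 and 0.17.

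The genes of that set that were called higher in hypoxia in exposures 1 to 3 and not in 4 were pcs-1 and kreg-1. pcs-1 encodes phytochelatin synthase, which makes metal-binding peptides from glutathione. It averaged 24.3 ± 4.16, 40.4 ± 6.56, 29.8 ± 4.38 and 16.7 ± 0.639 CPM in the hypoxia groups of exposures 1 to 4, against 14.7 ± 1.68, 15.3 ± 1.21, 15.1 ± 1.25 and 15.8 ± 0.997 CPM in normoxia (SD, n = 3 each). Its log2 fold changes were 0.71 (SE 0.17, edgeR adjusted p = 0.027), 1.42 (SE 0.12, adjusted p = 2.53e-06), 1.00 (SE 0.13, adjusted p = 0.000986) and 0.08 (SE 0.09, adjusted p = 0.45). No difference of pcs-1 was called among the 4 normoxia groups (adjusted p = 0.83). Its call in exposure 1 was lost without hypoxia replicate 3 (adjusted p = 0.0912), normoxia replicate 2 (adjusted p = 0.10) or normoxia replicate 3 (adjusted p = 0.0705), and over 12 alternatives it lay between 0.000248 and 0.10.

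kreg-1, a metal-responsive target of the KGB-1 kinase, averaged 4.5 ± 2.06, 5.98 ± 1.43, 6.01 ± 2.16 and 2.09 ± 0.207 CPM in hypoxia and 1.04 ± 0.550, 1.19 ± 0.377, 1.56 ± 0.502 and 1.65 ± 0.0859 CPM in normoxia of exposures 1 to 4 (SD, n = 3 each). Its log2 fold changes were 2.1 (SE 0.51, edgeR adjusted p = 0.0293), 2.34 (SE 0.27, adjusted p = 2.28e-05), 1.97 (SE 0.34, adjusted p = 0.00393) and 0.34 (SE 0.17, adjusted p = 0.121). Although not called in exposure 4, every hypoxia library there (1.86 to 2.26 CPM) lay above every normoxia library (1.55 to 1.72 CPM). The call in exposure 1 was lost in 4 of 6 fits that left out 1 library, without hypoxia replicate 1 (adjusted p = 0.0932), hypoxia replicate 3 (adjusted p = 0.0891), normoxia replicate 1 (adjusted p = 0.0762) or normoxia replicate 2 (adjusted p = 0.0888), and over 12 alternatives it lay between 0.000209 and 0.0932. The mean effect of exposures 1 to 3 minus that of exposure 4 was 0.96 for pcs-1 (SE 0.16) and 1.79 for kreg-1 (SE 0.43), given as a description because both genes were named for this pattern. Over the 51 genes tested for that difference, 12 were called above 0 and 7 below, against 6.46% and 12.1% of all genes. This is the pattern that chose the members, and the lists were drawn up with earlier results known. Nothing is therefore read from these counts. The 7 became 3 without normoxia replicate 2 of generation 4 and 4 without hypoxia replicate 3 of exposure 4.

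Among the zinc transporters, 4 rose and 0 fell of 17 tested in exposure 1, where 13.3% and 7.40% of all genes did, and 9 rose and 6 fell of 17 in exposure 2, where 37.2% and 36.3% did. In exposure 3, 4 rose and 2 fell of 17 (12.4% and 17.7% of all genes), and in exposure 4, 5 rose and 5 fell of 18 (27.1% and 23.0% of all genes). zipt-17, of the ZIP family of metal importers, rose in exposure 1 by 1.78 (SE 0.24, edgeR adjusted p = 0.00273), in exposure 2 by 2.06 (SE 0.15, adjusted p = 7.88e-07) and in exposure 4 by 0.98 (SE 0.23, adjusted p = 0.00784), with 0.43 (SE 0.25, adjusted p = 0.241) in exposure 3. ttm-1, an intestinal zinc exporter, rose in all 4 exposures by 0.69, 0.41, 0.74 and 0.69 on the log2 scale (edgeR adjusted p at most 0.0048).

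Of the 10 efflux and uptake genes, 3 rose and 1 fell in exposure 1 (13.3% and 7.40% of all genes), and 9 rose and 0 fell in exposure 2 (37.2% and 36.3%). In exposure 3, 4 rose and 1 fell (12.4% and 17.7% of all genes), and in exposure 4, 5 rose and 0 fell (27.1% and 23.0%). chca-1, which takes part in copper uptake, rose by 2.53 (SE 0.32), 2.37 (SE 0.17), 0.61 (SE 0.17) and 0.79 (SE 0.10), with edgeR adjusted p values of 0.00205, 7.25e-07, 0.0285 and 0.000438. The call in exposure 3 was lost in 4 of 6 fits that left out 1 library, without hypoxia replicate 1 (adjusted p = 0.0638) or 3 (adjusted p = 0.101) or normoxia replicate 1 (adjusted p = 0.10) or 3 (adjusted p = 0.0928), and with upper-quartile normalization (adjusted p = 0.0509), with a range of 0.00516 to 0.101. pgp-5, an ABC transporter, fell in exposures 1 and 3 by log2 fold changes of -2.71 and -3.34 and rose in exposure 2 by 1.55. Its normoxia libraries ranged between 31.5 and 272 CPM in generation 1. The call in exposure 1 (edgeR adjusted p = 0.041) was lost without hypoxia replicate 1 or 3 or normoxia replicate 2 or 3 (adjusted p between 0.103 and 0.146), with a range of 0.00236 to 0.146 over 12 alternatives. The call in exposure 2 was lost with one fit of all 24 libraries (adjusted p = 0.0778). In exposure 4, where it was not called, its log2 fold change was -0.73 and turned to 1.09 without normoxia replicate 1 (adjusted p = 2.98e-05, range 2.98e-05 to 0.914).

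Of the 5 genes of phytochelatin and glutathione synthesis, pcs-1 alone was called in exposure 1, 2 rose in exposures 2 and 3 each, and 1 fell in exposure 4, where the shares of all genes were those just given for the efflux and uptake genes. Of the 12 regulators, 1 rose in exposure 1, namely vhp-1, the phosphatase that acts on KGB-1, at 194 ± 25.8 CPM in hypoxia and 108 ± 10.6 CPM in normoxia (SD, n = 3 each). It rose in all 4 exposures, by 0.84, 0.81, 0.63 and 0.76 (edgeR adjusted p at most 0.00569). Over all regulators, 3 rose and 4 fell of 12 in exposure 2 (37.2% and 36.3% of all genes), 2 rose and 1 fell of 11 tested in exposure 3 (12.4% and 17.7%), and 5 rose and 2 fell of 12 in exposure 4 (27.1% and 23.0%). hizr-1 was called in none of the exposures in which it was tested. All 7 other cadmium-induced genes rose in exposures 2 and 3, with 4 of 7 in exposure 1, and in exposure 4 they divided into 5 that rose and 1 that fell. Of all genes, 13.3%, 37.2%, 12.4% and 27.1% rose in exposures 1 to 4. hsp-16.2, a small heat shock protein gene, rose in each exposure by 0.89, 1.17, 1.48 and 1.24 (edgeR adjusted p at most 0.00281), and was higher in normoxia of generation 4 than in the other normoxia generations by 1.21 (SE 0.10, adjusted p = 2e-05).

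The genes whose log2 CPM over the 24 libraries was most like that of mtl-1 were F48D6.4 (Pearson r = 0.969), cup-16 (r = 0.967), F09F7.6 (r = 0.937), Y48G8AL.13 (r = 0.936) and mak-1 (r = 0.936). For mtl-2 they were ubr-1 (r = 0.865), Y79H2A.2 (r = 0.859), puf-9 (r = 0.851), fshr-1 (r = 0.851) and hecd-1 (r = 0.849). mtl-2 itself ranked 970 among 13422 genes by likeness to mtl-1. These are descriptions over libraries that share generation and treatment.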

How the data were processed

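RNA-seq was measured in 24 libraries of whole worms. Per the labels, the authors trimmed reads with cutadapt 4.0, mapped them with Bowtie2 and assigned them to genes by featureCounts. The deposited values used here were raw counts, and the strand setting of the counting is not given in the sources used here, although the library kit keeps strand. Deposited tables of the authors' own comparisons (mean counts, fold changes, errors and p-values) were not used. Symbols were read from Ensembl and RefSeq annotations of WBcel235, and coordinates from Ensembl. Each exposure had its own fit in edgeR 4.0.16 under R 4.3.3 (TMM normalization, glmQLFit and glmQLFTest), on genes with at least 350 counts over its 6 libraries. The minimum was 700 counts over the 12 normoxia libraries for comparisons among generations, and 1400 over all 24 for the difference between exposures. Calls were made at a Benjamini-Hochberg adjusted p under 0.05 over all genes tested. CPM used TMM factors of all 24 libraries, and log2 CPM for correlations a prior count of 2. SE is the absolute log2 fold change divided by the square root of F.

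The members and gene lists were chosen with earlier results of these data known. Genes named were all members with numr-2, per list of other metal genes the 2 called genes of largest change in exposure 1 and any called higher in exposures 1 to 3 and not in 4, and the 5 genes of highest Pearson r with each metallothionein. elt-2 and hizr-1 were named outside this rule. Alternatives were upper-quartile normalization, DESeq2 1.42.0, no count filter, at least 10 counts in every library, a replicate block, one fit of all libraries, a log2 fold change of at least 1, and each library left out in turn. Of the fits, those of exposure 1, of normoxia generation 4 and of the difference between exposures were tested on simulated counts with known changes. At a log2 change of 1 they recovered 38.2%, 93.2% and 74.8% of the changed genes, in that order. At a log2 change of 2 they recovered 91.8%, 98.9% and 98.9%. With 38.2% recovered at a log2 change of 1, the fit of exposure 1 often missed small changes. Of all calls, 11.5%, 4.17% and 5.03% were false, in the same order. Calls in exposure 1 were thus more often false on these simulated counts than those of the other fits tested. The steps ran in Python 3.11.15 where no model was fitted.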

Additional observations from a re-analysis of the deposited data

Results flagged for a closer look

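Among the members, cdr-6 and cdr-7 had every hypoxia library on one side of the normoxia libraries in one exposure and on the opposite side in another. The difference between those exposures was not itself tested for either gene. The log2 fold change of cdr-6 was 0.97 in exposure 2, with all hypoxia libraries above normoxia, and -0.59 in exposure 4, with all below. For cdr-7 it was -0.46 (SE 0.23) in exposure 1, with all below, and 0.39 (SE 0.21) in exposure 2, with all above. cdr-7 was called in no exposure. Of all genes, 37.2% were called higher in exposure 2 and 23.0% lower in exposure 4, as cdr-6 was. The share of all genes whose libraries separate was not counted, so nothing is read from the separation.

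Among the other metal genes named, the hypoxia effect of exposures 1 to 3 minus that of exposure 4 stood past the threshold of the edgeR fit over all genes for kreg-1 at 1.79, chca-1 at 1.04 and pcs-1 at 0.96 on the log2 scale. kreg-1 and pcs-1 had been named for being called in exposures 1 to 3 and not in 4, and chca-1 for its change in exposure 1, so the values that named them also enter this difference and it is no independent evidence.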

How the results depend on the processing

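No result called in the reported fits turned direction under the alternatives. Members called higher numbered 4 in exposure 1 with DESeq2 and with one fit of all 24 libraries, against 2, and 5 in exposure 4 with no count filter and with one fit, where the numr genes were also tested, against 3. A minimum log2 fold change of 1 left 1 member in exposure 4 and 0 of 2 higher in normoxia of generation 4. For the other metal genes it left 5, 14, 7 and 9 called higher in exposures 1 to 4, and 0, 2 and 0 called lower in exposures 2, 3 and 4. One fit called 22 of them higher in exposure 1. The single lower call of exposure 1 became 2 with DESeq2, with at least 10 counts in every library and with no count filter, and 3 with one fit. Leaving out 1 library gave 7 to 15 higher and 0 to 6 lower in exposure 1, and 3 to 7 below 0 in the difference of effects. It gave 14 to 20 higher and 3 to 5 lower in exposure 3, and 16 to 24 higher and 6 to 7 lower in exposure 4. Of the 5 genes most like mtl-1, 1 was shared with Spearman's rho and 3 with group means, and for mtl-2 these were 3 and 3. Over deviations from group means, a measure added after seeing the data, 0 were shared for either gene. The cause of these changes was not tested, apart from the numr genes named above. At 0 to 5 counts per library, cdr-3 could not be compared.

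Deviations of same-numbered hypoxia and normoxia libraries correlated between -0.31 and 0.30 in exposure 1 and between -0.09 and 0.17 in the others. With 3 libraries per group, these values cannot decide whether the replicate numbers pair them. With a replicate block, the single lower call among the other metal genes of exposure 1 became 0 and 9 were called higher, against 13, and the members called higher numbered 2, 6, 6 and 3 in exposures 1 to 4, as without it. In the block fit, pcs-1 (adjusted p = 0.0733) and pgp-5 (adjusted p = 0.0808) in exposure 1 and chca-1 (adjusted p = 0.0578) in exposure 3 were not called.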
